A study of Camelina sativa with 12 samples.

Results

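*NCED3* (Csa19g021150) is the camelina gene annotated as 9-*cis*-epoxycarotenoid dioxygenase 3 and assigned to *A. thaliana* AT3G14440. It is 1 of 49932 genes in the root expression matrix and was taken up by its identifier, which places it on chromosome 19. The study had already listed it for a lower level in *P. migulae* 8R6-treated roots, so its values below are a description and no test is given for them. Root RNA was sequenced from 4 groups of 3 biological replicates, 12 libraries in all. One group was *C. sativa* DH55 whose soil was inoculated with *P. migulae* 8R6. This bacterium lives inside plants and carries *acdS*, the gene for ACC deaminase, which breaks down the precursor of ethylene. Another pair of groups was DH55 transformed with *acdS* of *Pseudomonas* sp. UW4, behind the broadly active double CaMV *35S* promoter (*35S::acdS*) or the root-specific *rolD* promoter of *Agrobacterium rhizogenes* (*rolD::acdS*). The control was untransformed DH55. The transgenic and control plants received buffer in place of bacteria. Every plant had 192 mM NaCl (15 dS/m) for 21 days and was harvested at 28 days, so no comparison here is between salt and no salt. The transgenic lines were described as single-insert and homozygous, and how many lines went into each group is not given in the sources used here.

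Abscisic acid (ABA) is the hormone through which plants close stomata and switch on water-stress genes, and its level climbs when roots meet salt or drying soil. It is made from carotenoids. The 9-*cis*-epoxycarotenoid dioxygenases cut the carotenoid precursor in plastids to give xanthoxin, the first committed and usually rate-limiting step, and in *A. thaliana* *NCED3* is the main family member induced by water stress. ABA then binds PYR/PYL/RCAR receptors, which block PP2C phosphatases and so release SnRK2 kinases, and it is stored or removed by joining it to glucose or by hydroxylation.

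*NCED3* was lower in every *P. migulae* 8R6-treated library than in any other library. The deposited levels are read counts scaled by library size (CPM) and given as whole numbers. The *P. migulae* 8R6-treated libraries stood at 3, 2 and 3 CPM, a mean of 2.67 ± 0.577 CPM (SD, n = 3). The *35S::acdS* libraries stood at 6, 8 and 4 CPM and averaged 6 ± 2 CPM. In the *rolD::acdS* line the gene reached 6, 8 and 11 CPM, with a mean of 8.33 ± 2.52 CPM. Control roots had 9, 7 and 5 CPM and averaged 7 ± 2 CPM. The highest *P. migulae* 8R6-treated library lay 1 CPM below the lowest of the 9 others, which was *35S::acdS* replicate 3, while the other 3 groups overlapped one another. Among 48099 tested genes, 0.482% had all 3 *P. migulae* 8R6-treated libraries below all 9 others, a share from which nothing is read here because the gene was chosen on these values.

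**Figure D1:**
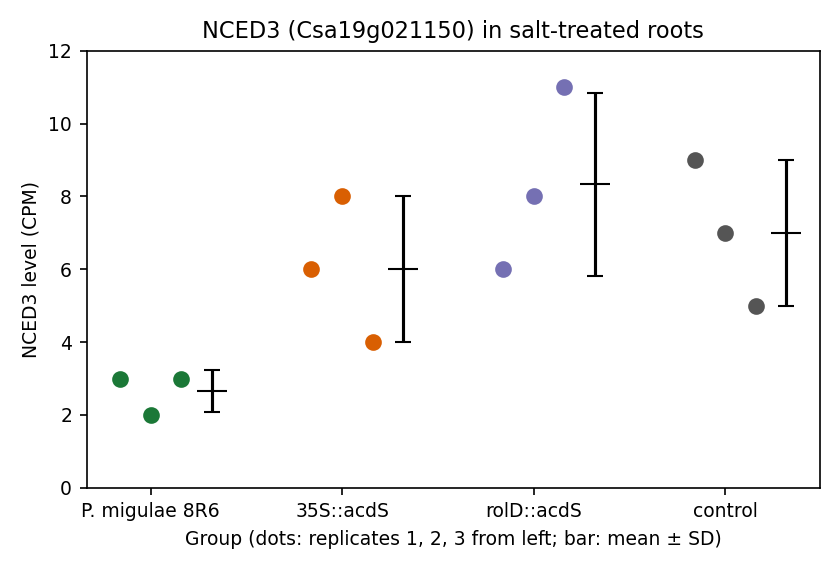
*NCED3* level in CPM (vertical axis, from 0) in each of the 12 libraries by group, with dots for replicates 1, 2 and 3 from left to right and the bar for the mean ± SD (n = 3). The *P. migulae* 8R6-treated dots lie at 2 and 3 CPM, below all other dots, which run from 4 to 11 CPM.

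In order, the group means ran from *P. migulae* 8R6-treated (2.67 CPM) through *35S::acdS* (6 CPM) and control (7 CPM) to *rolD::acdS* roots (8.33 CPM). The *35S::acdS* mean was 1 CPM below the control mean, within their pooled SD of 2 CPM. The *rolD::acdS* mean was 1.33 CPM above the control mean, within a pooled SD of 2.27 CPM. Only the step up to *35S::acdS* from *P. migulae* 8R6-treated roots, 3.33 CPM against a pooled SD of 1.47 CPM, was larger than the spread of the neighbouring groups. As a share of the mean, the SD was 21.7% in *P. migulae* 8R6-treated, 33.3% in *35S::acdS*, 30.2% in *rolD::acdS* and 28.6% in control roots.

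Fold changes are given as differences of group means of log2(CPM + 0.5), with the standard error (SE) from a limma fit of all 12 libraries. *NCED3* was at 0.381 times the control mean in *P. migulae* 8R6-treated roots, a log2 fold change of -1.23 ± 0.29 (SE), and all 9 pairs of a treated and a control library ran the same way. In 2.21% of the tested genes the *P. migulae* 8R6-treated libraries lay wholly below the control libraries. In *35S::acdS* roots the log2 fold change against the control was -0.22 ± 0.29, with 6 of 9 pairs lower and 3 higher. For *rolD::acdS* roots against the control it was 0.23 ± 0.29, with 6 of 9 pairs higher and 3 lower. Neither transgenic line therefore differed from the control by more than 1 SE.

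Set against the transgenic lines, *P. migulae* 8R6-treated roots again had the lower level in all 9 pairs of libraries. Their mean was 0.444 times that of *35S::acdS* roots, a log2 difference of -1.01 ± 0.29, and 0.320 times that of *rolD::acdS* roots, a log2 fold change of -1.46 ± 0.29. Such a complete separation downwards was met in 4.71% of tested genes against *35S::acdS* and in 5.1% against *rolD::acdS*. Between the lines, *35S::acdS* minus *rolD::acdS* gave -0.45 ± 0.29, with 6 of 9 pairs lower, 2 equal and 1 higher. The 3 comparisons that hold *P. migulae* 8R6-treated roots share the same 3 libraries, and the 3 against the control share the control libraries.

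**Figure D2:**
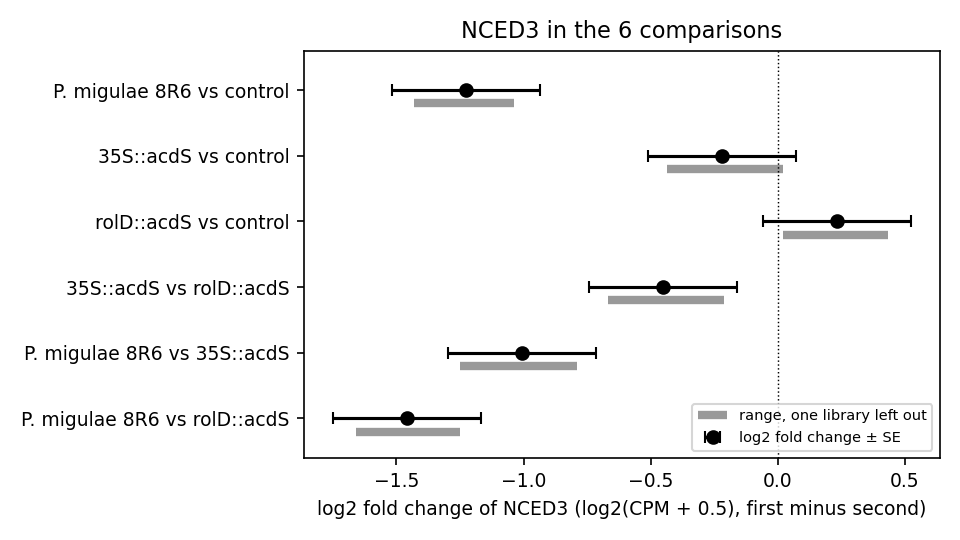
Log2 fold change of *NCED3* (horizontal axis, difference of mean log2(CPM + 0.5), first group minus second) in the 6 comparisons, with SE bars and, in grey, the range when 1 library is left out. The 3 comparisons with *P. migulae* 8R6-treated roots stay between -1.66 and -0.79 in the grey bars, and the others lie between -0.67 and 0.43.

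The gene is near the low end of what whole-number CPM can resolve. If each value were off by up to 0.5 CPM through rounding, the ratio of *P. migulae* 8R6-treated to control means could lie anywhere from 0.289 to 0.487, that of *35S::acdS* to control from 0.733 to 1.00 and that of *rolD::acdS* to control from 1.04 to 1.36. Averaged over the 12 libraries *NCED3* stood at 6 CPM. Its residual SD on the log2 scale was 0.39, against a median of 0.24 over 5526 tested genes with means of 5 to 7 CPM, and 12.6% of these genes varied more between replicates. Camelina is an allohexaploid, so reads of near-identical copies can be split or lost between them in counting. Other copies of *NCED3* were not identified here, and the level is that of this row alone. In whole roots, fewer cells that express the gene and less transcript per cell cannot be told apart.

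Values of 4 chlorophyll-binding protein genes, which are used in green tissue, stood beside those of *NCED3* (Csa04g046670, Csa05g020850, Csa06g029390 and Csa01g026130). The study named them as higher in the *acdS* lines, so a higher sum there is what they were chosen on and is no independent check of the tissue. Their summed level was 3 CPM in each *P. migulae* 8R6-treated library, 5 to 20 CPM in *35S::acdS*, 4 to 7 CPM in *rolD::acdS* and 4 CPM in each control library. The 20 CPM belonged to *35S::acdS* replicate 3, which also had the lowest *NCED3* level of its group. Replicate 2 of that line had a sum of 10 CPM and the highest *NCED3* level of the group, 8 CPM. In *rolD::acdS* replicates 1, 2 and 3, sums of 4, 6 and 7 CPM went with *NCED3* at 6, 8 and 11 CPM. Without *35S::acdS* replicate 3 the log2 fold change of *35S::acdS* against control was 0.02, and without its replicate 2 it was -0.44. The part of green tissue in the value was not tested. Root markers were not checked, since none could be matched to an identifier.

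The study named 17 other camelina genes in connection with ABA, of which 16 have a row in the matrix and were tested. It listed 3 of the 16 for *P. migulae* 8R6-treated roots, 3 for *35S::acdS* and 10 for *rolD::acdS* against the control, so their direction is not independent evidence. No test is given for a gene in any comparison that holds the treatment it was listed for. The remaining tests use limma with Benjamini-Hochberg adjustment over all 48099 genes. Calls required both an adjusted p not above 0.05 and a log2 fold change beyond 0.8 in either direction. The study, with edgeR, called genes in all 3 comparisons against the control. The low backgrounds below are therefore those of this limma fit on whole-number CPM.

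The receptor gene on this list ran opposite to *NCED3*. Csa05g012440, annotated as PYL6, an ABA receptor of the PYR/PYL/RCAR family, was at 1, 2 and 2 CPM in *P. migulae* 8R6-treated roots, at 1, 0 and 1 CPM in *35S::acdS*, at 1, 0 and 0 CPM in *rolD::acdS* and at 0, 0 and 1 CPM in control roots. These levels are at the step size of the data, and the *P. migulae* 8R6-treated and control libraries touched at 1 CPM. The log2 fold change was 1.55 ± 0.61 in *P. migulae* 8R6-treated roots against the control, the comparison for which it was listed. With a pseudocount of 0.1 in place of 0.5 it was 2.93, and with 1 it was 1.06. Across the 12 libraries its log2 level had a Pearson's r of -0.88 with that of *NCED3*, and of -0.82 after each group mean was taken out. Both genes were listed for the same comparison in opposite directions, which the first of these values contains.

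The genes annotated for release or conjugation of ABA were a beta-glucosidase and a glucosyltransferase gene. The group means of the beta-glucosidase gene had the order of *NCED3*, and those of the glucosyltransferase gene did not. Outside *rolD::acdS* the beta-glucosidase order rests on overlapping libraries at 0 or 1 CPM, and nothing is read from it. Csa17g092400, beta-glucosidase 18, which in *A. thaliana* frees ABA from its glucose ester, was listed at 0 throughout in *P. migulae* 8R6-treated roots and stood at 0, 0 and 1 CPM in *35S::acdS*, at 4, 1 and 7 CPM in *rolD::acdS* and at 1, 1 and 0 CPM in control roots. No fold change is given against a group at 0, and the adjusted p was 0.876 for *P. migulae* 8R6-treated against control roots (limma). Its high *rolD::acdS* level is what it was listed for. Csa05g029410, annotated as the glucosyltransferase UGT74D1, carries ABA in its annotation, while the study discussed UGT74D1 with the inactivation of auxin. It was at 6, 8 and 11 CPM in *P. migulae* 8R6-treated roots, at 17, 15 and 14 CPM in *35S::acdS*, at 8, 7 and 11 CPM in *rolD::acdS* and 9, 7 and 7 CPM in control roots. Its *35S::acdS* libraries lay above all 9 others, and it had been listed for *35S::acdS*. In *P. migulae* 8R6-treated against control roots its log2 fold change was 0.08 ± 0.22 (adjusted p = 0.961 from limma).

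Among the transcription factors, the *RAP2.6* gene Csa03g046520 had the widest range of means. RAP2.6 is an ethylene response factor that in *A. thaliana* takes part in ABA, salt and osmotic responses. The gene was at 3, 1 and 2 CPM in *P. migulae* 8R6-treated roots, at 6, 2 and 8 CPM in *35S::acdS*, at 56, 27 and 51 CPM in *rolD::acdS* and 12, 2 and 4 CPM in control roots. In *P. migulae* 8R6-treated roots its log2 fold change was -1.14 ± 0.61 against the control (adjusted p = 0.874 from limma). It had been listed for its level in *rolD::acdS* roots. The other *RAP2.6* gene, Csa17g069360, was listed at 0 in every *P. migulae* 8R6-treated library and at 0, 0 and 2 CPM in *35S::acdS*, at 4, 1 and 6 CPM in *rolD::acdS* and 1, 0 and 1 CPM in control roots.

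The 2 MYB genes encode transcription factors tied to dehydration and osmotic stress. In *P. migulae* 8R6-treated and control roots *MYB2* had the same mean, near the step size of the data. *MYB102* was at 0 in both groups and could not have been lower, so it cannot be set against *NCED3* there. Csa04g066350, *MYB2*, averaged 2 ± 1 CPM in *P. migulae* 8R6-treated, 5.67 ± 1.53 CPM in *35S::acdS*, 6.33 ± 2.08 CPM in *rolD::acdS* and 2 ± 1 CPM in control roots (SD, n = 3). Its *35S::acdS* libraries, at 7, 4 and 6 CPM, lay above the control libraries at 3, 1 and 2 CPM, as for 3.46% of tested genes. The log2 difference was 1.35 ± 0.39, with an adjusted p of 0.507 by limma. It was listed for *rolD::acdS* against the same control libraries. Csa11g025000, *MYB102*, was listed at 0 in every library except those of *rolD::acdS*, at 1, 1 and 2 CPM, the group for which it was listed and through which alone it passed the filter on low values.

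The remaining genes are effectors and developmental genes linked to ABA. The alpha-dioxygenase 1 genes, whose products oxidize fatty acids and protect against oxidative stress, ran opposite to *NCED3* in *P. migulae* 8R6-treated against control roots. In *rolD::acdS* roots their means lay above the control means, as did that of *NCED3*, but from libraries at 0 or 1 CPM. Csa15g001040 was at 3, 5 and 2 CPM in *P. migulae* 8R6-treated, 2, 0 and 3 CPM in *35S::acdS*, at 1, 0 and 1 CPM in *rolD::acdS* and 0, 0 and 1 CPM in control roots. Csa01g001030 was at 2, 4 and 1 CPM in *P. migulae* 8R6-treated, 2, 0 and 1 CPM in *35S::acdS* and at 1, 0 and 0 CPM in *rolD::acdS* roots, and was listed at 0 in all control libraries. Both had been listed for *P. migulae* 8R6-treated roots. Their Pearson's r with *NCED3* over the 12 libraries was -0.80 and -0.81, and -0.67 and -0.63 within groups. *NCED3* was listed for the same comparison in the opposite direction, which the values over the 12 libraries contain. At 0 to 5 CPM the values within groups rest on steps of 1 CPM.

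The genes of glycosyl hydrolase family 32, vacuolar invertases that split sucrose, had their highest means in *rolD::acdS* roots, which is what they were listed for. The highest mean of *NCED3* was also there, but within 1 SE of the control. No separate low level was seen for the 3 invertase genes in *P. migulae* 8R6-treated roots. Csa03g015980 averaged 23.3 ± 10.2 CPM in *P. migulae* 8R6-treated, 30.7 ± 15.5 CPM in *35S::acdS*, 79 ± 19.5 CPM in *rolD::acdS* and 27.7 ± 8.62 CPM in control roots (SD, n = 3). Csa17g016450 and Csa14g015170 had log2 fold changes of -0.37 ± 0.38 and -0.01 ± 0.37 in *P. migulae* 8R6-treated against control roots (adjusted p = 0.911 and 1.00 from limma). The cold-regulated gene *COR6.6* (Csa13g018780) averaged 9 ± 4 CPM in *P. migulae* 8R6-treated, 12 ± 8.72 CPM in *35S::acdS*, 26.7 ± 7.23 CPM in *rolD::acdS* and 13.3 ± 2.08 CPM in control roots. Annexin 4 (Csa04g052610), a calcium-dependent membrane-binding protein, averaged 12 ± 1.73 CPM in *P. migulae* 8R6-treated, 10.3 ± 2.31 CPM in *35S::acdS*, 20 ± 6.24 CPM in *rolD::acdS* and 9.33 ± 1.53 CPM in control roots. *COR6.6* and annexin 4 had also been listed for *rolD::acdS*. The *Mother of FT and TFL1* genes, regulators of germination that respond to ABA, were lowest on average in *35S::acdS* roots, at 10.7 ± 2.89 CPM for Csa17g023890 and 12.7 ± 4.62 CPM for Csa03g021940, against 24 ± 1.73 and 25.7 ± 7.37 CPM in control roots. That low *35S::acdS* level is what they were listed for.

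Counts of ABA genes were made over those not listed for either group of a comparison. In the comparisons without *rolD::acdS* they include *MYB102*, which was at 0 in both groups there and could not have been called. In *P. migulae* 8R6-treated against control roots, 0 of 13 such genes were called (background 0%), and 0 had an unadjusted p under 0.05 (background 5.41%). Leaving out 3 with a group at 0 throughout, 2 had a positive and 7 a negative log2 fold change, and that of *MYB2* was 0. The median was -0.28 against 0 over all tested genes. The negative ones include the 3 invertase genes, 1 of them at -0.01, and the *Mother of FT and TFL1* genes, so they are not separate cases. The share of negative changes over all tested genes was not taken, and nothing is read from the direction. The control libraries of this comparison also entered the listing of the 13 genes for the transgenic lines. In *35S::acdS* against control, 0 of 13 were called (background 0%) and 1, *MYB2*, had an unadjusted p under 0.05 (background 7.12%). In *rolD::acdS* against control, 0 of 6 were called (background 0.00416%) and 1, Csa17g023890, had an unadjusted p under 0.05 (background 6.86%).

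Between the treatments few genes remained. In *P. migulae* 8R6-treated against *rolD::acdS* roots 0 of 3 were called (background 0.00832%) and 0 had an unadjusted p under 0.05 (background 13%). In *35S::acdS* against *rolD::acdS* roots 0 of 3 were called (background 0.00416%) and 0 had an unadjusted p under 0.05 (background 7.53%). In *P. migulae* 8R6-treated against *35S::acdS* roots 0 of 10 were called (background 0%) and 1, *MYB2*, was lower at an unadjusted p under 0.05 (background 12.1%), with a log2 difference of -1.35 ± 0.39 and an adjusted p of 0.254 by limma.

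**Figure D3:**
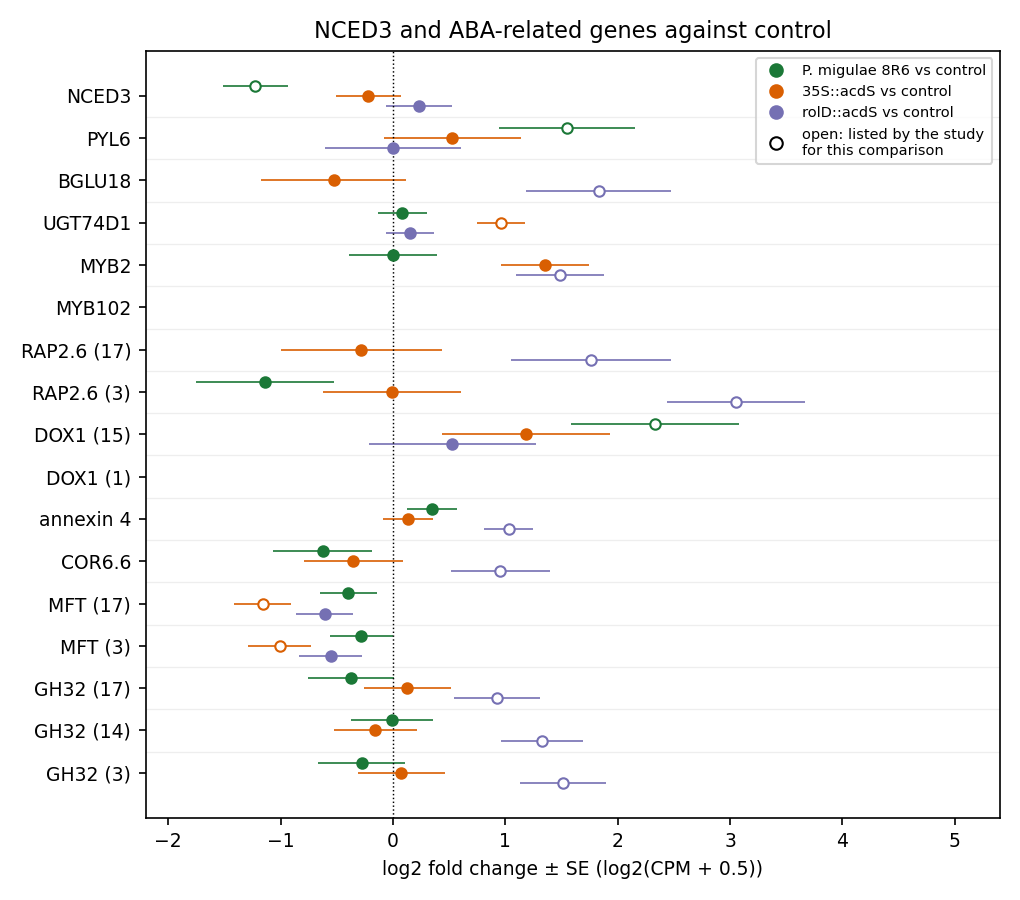
Log2 fold change ± SE (horizontal axis, log2(CPM + 0.5), each treatment minus control) of *NCED3* and the 16 ABA-related genes, with the chromosome number in parentheses where several genes share a name. Open circles mark the comparison for which the study listed the gene, comparisons with a group at 0 throughout are left out, and the *NCED3* point for *P. migulae* 8R6 (-1.23) lies on the other side of 0 from that of PYL6 (1.55).

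The genes whose pattern was most like that of *NCED3* were sought among 32861 tested genes with a mean of at least 5 CPM, by Pearson's r of log2(CPM + 0.5) over the 12 libraries. The values share libraries and scaling and are a description. The median r was 0.00, and 372 genes (1.13%) had an r above 0.8. The top 5 were Csa16g043230 (0.95), Csa17g015800 (0.95), Csa12g076310 (0.94), Csa11g090670 (0.94) and Csa15g015160 (0.94), for which no annotation was at hand. With the group means removed their r was between 0.84 and 0.89. With any 1 library left out, or with another pseudocount or scaling, the r of these genes was between 0.92 and 0.97. Both ranges come from the libraries on which the genes were chosen, so high values are favoured and are no separate support.

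All of them had higher CPM than *NCED3*, and a smaller SD relative to the mean in each group. Csa16g043230 was at 25, 24 and 23 CPM in *P. migulae* 8R6-treated roots, at 30, 32 and 27 CPM in *35S::acdS*, at 30, 32 and 36 CPM in *rolD::acdS* and 33, 33 and 26 CPM in control roots. Its log2 fold change in *P. migulae* 8R6-treated against control roots was -0.34 ± 0.11. Csa11g090670 had the largest such change of the top 5, at 136, 120 and 129 CPM in *P. migulae* 8R6-treated against 256, 184 and 147 CPM in control roots, or -0.57 ± 0.21. In each of the 5 genes the *P. migulae* 8R6-treated libraries lay below the control libraries, as the choice by likeness favours.

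The 3 genes most opposite to *NCED3* were Csa13g023410 (r = -0.97), Csa14g034300 (r = -0.96) and Csa19g021500 (r = -0.95). Csa14g034300 was at 9, 12 and 9 CPM in *P. migulae* 8R6-treated, 7, 5 and 9 CPM in *35S::acdS*, at 7, 6 and 5 CPM in *rolD::acdS* and 5, 5 and 7 CPM in control roots. Against the control its log2 difference was 0.77 ± 0.22. Csa19g021500 lies on the same chromosome as *NCED3*. It averaged 34.7 ± 5.03 CPM in *P. migulae* 8R6-treated and 24 ± 2.65 CPM in control roots (SD, n = 3).

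**Figure D4:**
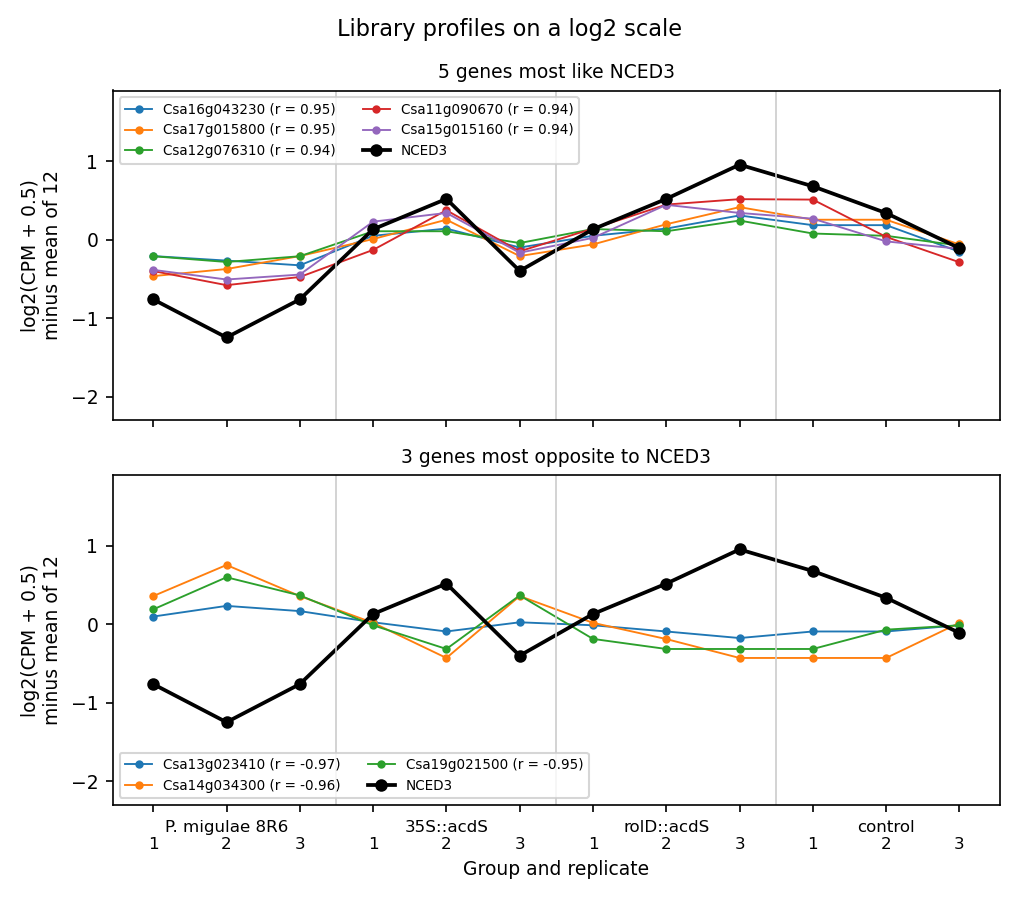
Log2(CPM + 0.5) minus its mean over 12 libraries (vertical axis) of *NCED3* in black and of the 5 genes most like it (top) and the 3 most opposite (bottom), by group and replicate. The black line swings more widely than the 5 others while dipping in the same libraries, among them *35S::acdS* replicate 3 at 4 CPM.

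The rows next to *NCED3* on chromosome 19 were described for their own levels. Of the 5 rows on either side in identifier order, 9 of 10 were tested, and Csa19g021160, the next row, was listed at 0 in all 12 libraries. In *P. migulae* 8R6-treated against control roots 0 of the 9 were called (background 0%) and 1 had an unadjusted p under 0.05 (background 5.41%). That gene, Csa19g021260, was at 8, 9 and 9 CPM in *P. migulae* 8R6-treated and 13, 11 and 10 CPM in control roots. Its log2 difference was -0.36 ± 0.16, with an adjusted p of 0.874 by limma. Csa19g021140, the row before *NCED3*, stood at a like level of 6, 6 and 5 CPM in *P. migulae* 8R6-treated and 6, 5 and 3 CPM in control roots. The log2 difference there was 0.30 ± 0.20 (limma, adjusted p = 0.876). The log2 fold changes of the 9 neighbours ran from -0.36 to 1.06, and the 1.06 belonged to Csa19g021020, which was at 1, 1 and 1 CPM in *P. migulae* 8R6-treated and 0, 1 and 0 CPM in control roots.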

How the data were processed

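Root polyA RNA of 12 libraries was sequenced by the authors, using Trimmomatic for trimming, STAR for mapping against camelina release 100 together with transcripts from NCBI, and per-gene counts over library size as CPM. The authors used DESeq for normalization and edgeR for their tests. Versions are not given in the sources used here. The deposited score values are named CPM and are whole numbers throughout (100%), so rounding is inferred and they were not treated as counts. Column sums were 887898 to 947036, and the read depth is unknown, so low genes have steps of 1 CPM.

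From the deposited values log2(CPM + 0.5) was fitted with limma 3.58.1 in R 4.3.3 (trend in the prior variance), 4 group means in 1 fit with 8 residual and 2.59 prior degrees of freedom. Genes with at least 1 CPM in at least 3 libraries were tested (48099 of 49932), with Benjamini-Hochberg adjustment per comparison. P-values set a difference of 2 group means against the spread between libraries within groups, pooled over the 4 groups and drawn towards the prior variance. Tables and plots used Python 3.11.15, pandas 2.3.3 and matplotlib 3.10.9. The fit was tested on simulated data. The edgeR test of the study needs read counts and was not used.

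*NCED3* and the ABA genes were chosen with earlier results of these data known. Named genes were *NCED3*, the ABA genes in the text and annotation of the study, the 5 most and 3 least correlated genes with a mean of at least 5 CPM, and 5 rows on either side. *BFT* (Csa11g098840), the last of the ABA genes, was not analysed here. Leaving ABA genes out of comparisons that hold the treatment they were listed for was extended from the control comparisons to all 6 after the values were seen. No gene table used here pairs these identifiers with names or sequences, so none is printed. Fits were repeated with the replicate number as a block, with each library left out, with just the 2 groups of a comparison, with quantile or median-of-ratios scaling, with a pseudocount of 0.1 or 1, and with no filter or a mean of at least 5 CPM. A sheet that lists column names was left out.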

Additional observations from a re-analysis of the deposited data

How the results depend on the processing

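The log2 fold changes of *NCED3* moved by less than 1 SD between replicates in all 14 alternatives run for each comparison. For *P. migulae* 8R6-treated minus control roots, leaving out 1 library gave -1.43 to -1.04 and the other alternatives gave -1.34 to -1.11. For *35S::acdS* minus control roots, leaving out 1 library gave -0.44 to 0.02, and for *rolD::acdS* minus control roots 0.02 to 0.43. For *35S::acdS* minus *rolD::acdS* roots this range was -0.67 to -0.21, for *P. migulae* 8R6-treated minus *35S::acdS* roots -1.25 to -0.79, and for *P. migulae* 8R6-treated minus *rolD::acdS* roots -1.66 to -1.25.

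Counts of genes called over the whole matrix depended on the processing. For *P. migulae* 8R6-treated against control the count of 0 became 1 with a pseudocount of 0.1, 2 with no filter and 24 in a fit of just these groups, and was 0 to 4 with 1 library left out. For *35S::acdS* against control the count of 0 became 6 with no filter and 37 with just these groups, and was 0 to 6 with 1 library left out. For *rolD::acdS* against control the count of 2 became 0 with a pseudocount of 1, median-of-ratios scaling or a mean of at least 5 CPM, 4 with no filter and 21 with just these groups, and was 0 to 7 with 1 library left out. For *35S::acdS* against *rolD::acdS* the count of 2 became 0 under the same alternatives, 8 with no filter and 39 with just these groups, and was 0 to 10 with 1 library left out. For *P. migulae* 8R6-treated against *35S::acdS* the count of 0 became 3 with a pseudocount of 0.1, 10 with no filter, 2 with a mean of at least 5 CPM and 74 with just these groups, and was 0 to 22 with 1 library left out. For *P. migulae* 8R6-treated against *rolD::acdS* the count of 4 became 15 with a pseudocount of 0.1, with quantile normalization or with no filter, 0 with a pseudocount of 1, 11 with median-of-ratios scaling, 24 with a mean of at least 5 CPM and 44 with just these groups, and was 0 to 53 with 1 library left out. The causes were not tested. Of 651 alternative log2 fold changes of ABA genes against control, 642 moved by no more than 1 SD, as most had to. The other 9 moved further, and 32 took another sign or left 0.

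The count of called ABA genes not listed for either group stayed at 0 throughout. No alternative called over 74 genes in the whole matrix, so nothing is read from this.

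Replicate numbers are shared between the groups, but same-numbered libraries did not deviate together throughout. The correlation of their deviations ran from -0.14 to 0.40 over 18 pairs, with a median of 0.11 and 10 above 0.1, and over 36 pairs with different numbers the median was -0.04 with 7 above 0.1. Own numbers correlated best in 20 of 36 comparisons, a hint from the data and not the design. Not every same-numbered pair was above 0.1, so pairing was not used. The SE and p-values of the main fit therefore take no account of any structure shared by replicate number. The replicate block gave 0 called genes for *rolD::acdS* against control, 0 for *35S::acdS* against *rolD::acdS* and 1 for *P. migulae* 8R6-treated against *rolD::acdS*.

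At 2 to 11 CPM, *NCED3* is limited by steps of 1 CPM and 3 libraries a group, and the read depth behind these values is unknown.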
